A study of Homo sapiens with 8 samples.

Results

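The Notch pathway was followed through 10 genes in 2 triple-negative breast cancer cell lines. They comprised the ligands JAG1, JAG2 and DLL1, the receptors NOTCH1, NOTCH2 and NOTCH3, and the targets HES1, HES4, HEY1 and NRARP. The genes were chosen by name from the 55679 gene identifiers of the count table, and their CPM (a gene's counts scaled to the same total for every library) and log2 ratios in these libraries were known when they were selected. Their levels and ratios are therefore given as a description, with no test. The rule had no threshold, so no gene lies just inside or outside it. All 10 had 1 identifier each, and 9 reached a mean of 1 CPM over the libraries; DLL1 did not.

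Notch signaling passes between touching cells. A ligand of the Jagged or Delta-like family on one cell binds a Notch receptor on its neighbor, ADAM proteases and γ-secretase cut the receptor, and its intracellular domain enters the nucleus. There it joins the DNA-binding protein RBPJ and MAML coactivators at target genes, among which are the HES and HEY repressors and NRARP, an inhibitor that acts back on the pathway. In breast tissue the pathway is known for roles in luminal cell fate, and JAG1 and the Notch receptors have been studied widely in triple-negative tumors.

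RNA-seq was done on MDA-MB468 and BT549 cells, both established human lines, in 8 libraries with 1 library per condition. Parental cells and cells made resistant by chronic exposure to Acetalax (CE cells, up to 40 μM, then drug-free for 2 weeks) were each sequenced as an untreated control and after 1 μM Acetalax for 6 hours. Acetalax (oxyphenisatin acetate) is a small molecule from an older class of laxatives. The study describes the CE cells as resistant clones, and no source used here says how many clones a CE culture held. Both CE libraries of a line therefore share their long exposure, and no difference between conditions has a replicate check.

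The libraries held 42261122 to 54241728 counts on genes, so 1 CPM stood for 42.3 to 54.2 counts. Intervals given with the ratios below are 95% counting intervals, which cover counting error only and not the spread between cultures. Scaling to equal totals left the median log2 ratio of all genes between -0.21 and -0.07 in the 4 Acetalax pairs. TMM scaling raised these ratios by 0.06 to 0.08 in 3 pairs and by 0.19 in the BT549 CE pair, and by 0.17 between the treated BT549 libraries. Epithelial markers separated the lines: CDH1 was at 119 to 155 CPM in MDA-MB468 and 0.237 to 0.959 in BT549, and EPCAM, KRT5, KRT14 and KRT18 were also without overlap. The mesenchymal markers VIM, CDH2 and ZEB1 were the reverse, with VIM at 1.77 to 8.94 CPM in MDA-MB468 and 864 to 1414 in BT549. ESR1 did not exceed 5.15 CPM, PGR did not exceed 0.627 and ERBB2 lay between 41.2 and 95.2. The leukocyte marker PTPRC did not exceed 0.756 CPM, and the endothelial marker CDH5 was at 0.74 to 8.01 CPM in MDA-MB468 and at 0 in BT549.

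The promoters of 4 of the genes are shown because the results turn on these genes and because 2 of the 4 carry the core of the RBPJ binding motif. Each is the 250 bases before the gene's start, on the gene's strand, from RefSeq (GRCh38.p14), and capitals mark the motif core TGGGAA. HES1 lies at chr3:194135898-194136147 (plus strand), HES4 at chr1:1000098-1000347 (minus strand), NRARP at chr9:137302272-137302521 (minus strand) and JAG1 at chr20:10674000-10674249 (minus strand).
HES1: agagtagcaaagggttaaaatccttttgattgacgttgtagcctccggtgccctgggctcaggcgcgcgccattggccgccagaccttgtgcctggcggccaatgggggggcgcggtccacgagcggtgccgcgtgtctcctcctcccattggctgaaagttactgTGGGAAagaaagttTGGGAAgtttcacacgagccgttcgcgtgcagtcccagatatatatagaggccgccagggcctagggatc
HES4: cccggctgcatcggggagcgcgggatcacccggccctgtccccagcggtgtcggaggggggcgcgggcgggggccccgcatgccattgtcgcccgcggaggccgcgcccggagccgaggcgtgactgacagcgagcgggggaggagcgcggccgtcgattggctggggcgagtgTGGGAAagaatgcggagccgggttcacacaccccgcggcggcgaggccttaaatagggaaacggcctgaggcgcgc
NRARP: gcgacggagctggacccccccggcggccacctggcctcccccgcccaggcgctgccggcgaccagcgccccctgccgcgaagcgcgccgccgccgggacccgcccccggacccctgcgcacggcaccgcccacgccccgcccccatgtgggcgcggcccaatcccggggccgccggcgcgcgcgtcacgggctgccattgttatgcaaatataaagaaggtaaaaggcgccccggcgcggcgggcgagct
JAG1: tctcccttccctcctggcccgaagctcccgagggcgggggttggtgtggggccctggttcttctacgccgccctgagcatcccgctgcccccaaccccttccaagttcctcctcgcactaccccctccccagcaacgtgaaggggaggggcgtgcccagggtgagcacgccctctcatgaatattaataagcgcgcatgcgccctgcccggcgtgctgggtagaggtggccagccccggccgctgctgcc

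Promoter entries were matched for 8 of the 10 genes, all but DLL1 and HEY1. TGGGAA, searched on both strands, occurred in 20.8% of 35116 promoter windows of this length, and 2.9% held it at least 2 times. The HES1 window held it 2 times, at 84 and 70 bases before the start, and the HES4 window held it 1 time, at 76 bases. The first HES1 copy and the HES4 copy were preceded by G, and this longer form, GTGGGAA, occurred in 5.4% of windows. These copies lie within a run of 12 bases that both windows share, tgTGGGAAagaa, which starts 86 bases before the HES1 start and 78 before the HES4 start. That run was found after the windows had been read, and 6 of the 35116 windows held it on either strand, the HES1 and HES4 windows included. JAG1, JAG2, NOTCH1, NOTCH2, NOTCH3 and NRARP had no TGGGAA in these windows, which says nothing of sequence elsewhere. GC content was 59.2% for HES1, 68.4% for JAG1, 74.8% for HES4 and 78.4% for NRARP, against a median of 58.0% over all windows.

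On the per-length scale (FPKM from merged exon lengths), the mean levels over the 8 libraries spanned a wide range. Among targets, HES4 had 68.4 FPKM, HES1 had 39.2, NRARP had 3.57 and HEY1 had 0.842. Among receptors, NOTCH3 had 34.7 FPKM, NOTCH2 had 13.0 and NOTCH1 had 3.81. Among ligands, JAG1 had 3.95 FPKM, JAG2 had 2.79 and DLL1 had 0.0601. HES4 and HES1 were thus the most abundant transcripts of the set by length, and both Jagged ligands lay above the Delta-like ligand.

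**Figure D1:**
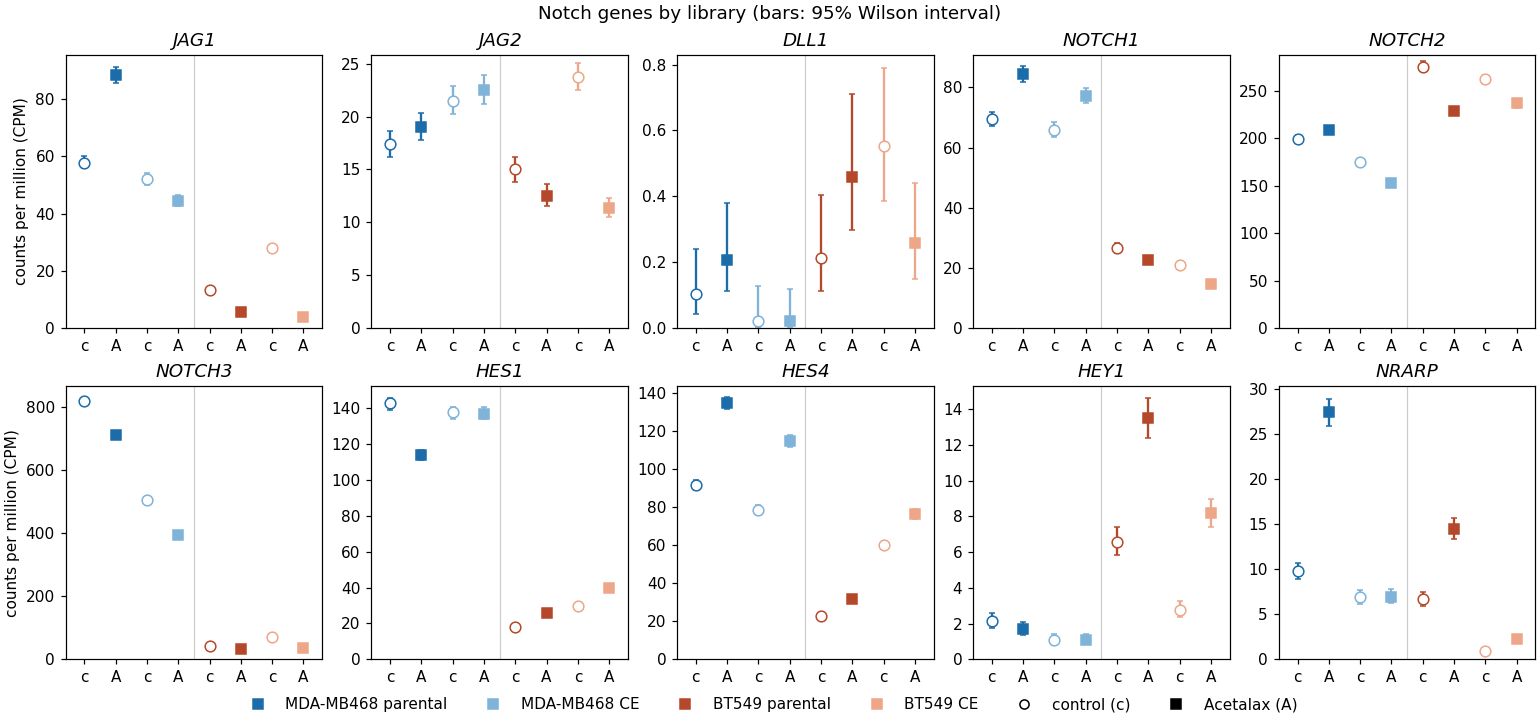
CPM of each of the 10 Notch genes (vertical axes, linear from 0, with their own scales) in the 8 libraries, MDA-MB468 left and BT549 right of the line; open circles are control (c), squares Acetalax (A), dark colors parental and light colors CE cells, and bars 95% Wilson intervals. NOTCH3 sits at 394 to 818 CPM in MDA-MB468 and 32.6 to 71.3 in BT549, while JAG1 in BT549 is lower in both treated libraries than in both controls.

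Among the ligands, JAG1 was lower after Acetalax in both BT549 backgrounds and higher in MDA-MB468 parental cells. JAG1 encodes the Jagged ligand most often linked to breast cancer and lies on chromosome 20 at 10618332 to 10654694 (hg19, minus strand). In MDA-MB468 it was at 57.8 CPM in parental control cells and 88.3 with Acetalax, and at 52.0 CPM in CE control cells and 44.5 with Acetalax. In BT549 it was at 13.3 CPM in parental control cells and 5.75 with Acetalax, and at 28.0 CPM in CE control cells and 3.9 with Acetalax. Thus the parental treated library was the highest of MDA-MB468, and both treated libraries were the lowest of BT549. The log2 ratio of treated to control was 0.61 (95% counting interval 0.54 to 0.68) in MDA-MB468 parental cells and -0.22 (-0.31 to -0.14) in their CE counterparts. It was -1.20 (-1.43 to -0.99) in BT549 parental cells and -2.84 (-3.07 to -2.63) in BT549 CE cells, where the treated level was 7.17-fold lower. With TMM scaling the last value was -2.65. All 8 libraries differed from their neighbors in rank by more than the counting intervals.

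JAG1 in BT549 CE cells also stood apart before treatment. The CE control library exceeded the parental control 2.11-fold (log2 ratio 1.08, 0.94 to 1.22), but the treated CE library was below the treated parental one (-0.56, -0.84 to -0.29). The BT549 CE control library enters both the CE ratio of 1.08 and the Acetalax ratio of -2.84, so these are not separate measurements. In MDA-MB468 the CE ratio was -0.15 (-0.23 to -0.07) between controls and -0.99 (-1.07 to -0.91) between treated libraries. An antisense gene within JAG1, RP11-103J8.1, had at most 0.0631 CPM.

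JAG2, the second Jagged ligand, is on chromosome 14 at 105607318 to 105635161 (hg19, minus strand). Its MDA-MB468 levels were 17.4 CPM in parental control, 19.0 in parental Acetalax, 21.5 in CE control and 22.5 in CE Acetalax cells. For BT549 the same order gave 15.0, 12.5, 23.7 and 11.4 CPM. The BT549 CE control library was again the highest of its line and the BT549 CE Acetalax library the lowest, and the ranges of the lines overlapped. The Acetalax log2 ratio was -1.06 (-1.21 to -0.92) in BT549 CE cells and -0.26 (-0.42 to -0.09) in BT549 parental cells. In MDA-MB468 the ratios of 0.13 and 0.07 had counting intervals that included 0. Between controls, CE exceeded parental cells by 0.31 (0.17 to 0.44) in MDA-MB468 and 0.67 (0.53 to 0.81) in BT549, both as log2 ratios. Between treated libraries the log2 ratio was 0.24 in MDA-MB468 and -0.14 in BT549, and the latter became 0.03 with TMM scaling.

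DLL1, a Delta-like ligand, was near the detection limit in MDA-MB468. It lies on chromosome 6 at 170591294 to 170599561 (hg19, minus strand). MDA-MB468 had 5 counts in parental control, 10 in parental Acetalax and 1 in each CE library. BT549 had 9 counts in parental control, 20 in parental Acetalax, 30 in CE control and 13 in CE Acetalax cells. All libraries were at or below 0.553 CPM, and neighbors in rank overlapped in their counting intervals throughout. In BT549 the log2 ratios were 1.07 (-0.09 to 2.43) for parental and -1.07 (-2.17 to -0.12) for CE cells, so the parental difference was not detectable at this depth.

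Among the receptors, NOTCH3 was lower after Acetalax in all 4 backgrounds. NOTCH3 lies on chromosome 19 at 15270444 to 15311792 (hg19, minus strand). In MDA-MB468 it was at 818 CPM in parental control, 712 in parental Acetalax, 504 in CE control and 394 in CE Acetalax cells. In BT549 the corresponding levels were 42.0, 32.6, 71.3 and 35.4 CPM. Every treated library was below its own control, and every MDA-MB468 library was above every BT549 library. The Acetalax log2 ratios were -0.20 and -0.36 in MDA-MB468 parental and CE cells and -0.37 and -1.01 in BT549 parental and CE cells. With TMM scaling these were -0.13, -0.30, -0.29 and -0.82. Over all 14030 genes that reached a mean of 1 CPM, 30.0% were lower in all 4 pairs, so this pattern was common.

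CE cells had less NOTCH3 than parental cells in MDA-MB468 and more in BT549. The log2 ratio between controls was -0.70 (-0.72 to -0.67) in MDA-MB468, a 1.62-fold lower level. It was 0.76 (0.68 to 0.84) in BT549, a 1.69-fold higher level. Between treated libraries it was -0.85 (-0.88 to -0.83) in MDA-MB468 and 0.12 (0.02 to 0.22) in BT549, so the BT549 difference was smaller there.

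NOTCH1, on chromosome 9 at 139388896 to 139440314 (hg19, minus strand), went opposite ways in the 2 lines. MDA-MB468 had 69.4 CPM in parental control, 84.5 in parental Acetalax, 65.9 in CE control and 77.2 in CE Acetalax cells. BT549 had 26.6, 22.6, 21.0 and 14.5 CPM in the same order. Both treated MDA-MB468 libraries were above both controls of that line, and each treated BT549 library was below its own control. The log2 ratios were 0.28 (0.22 to 0.35) and 0.23 (0.16 to 0.30) in MDA-MB468 parental and CE cells. They were -0.24 (-0.36 to -0.11) and -0.54 (-0.67 to -0.40) in BT549 parental and CE cells. None reached 1.5-fold. NOTCH1 was also lower in CE than in parental cells. In MDA-MB468 the log2 ratio was -0.08 between controls and -0.13 between treated libraries. In BT549 it was -0.34 between controls and -0.64 (-0.78 to -0.51) between treated libraries, the latter a 1.56-fold lower level. With TMM scaling that last ratio was -0.48. The antisense gene RP11-413M3.4 at this locus had at most 0.129 CPM.

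NOTCH2 varied least of the 10 genes, 1.79-fold between its lowest and highest library. It lies on chromosome 1 at 120454176 to 120612240 (hg19, minus strand). Its levels were 199, 209, 175 and 153 CPM in MDA-MB468 parental control, parental Acetalax, CE control and CE Acetalax cells, and 275, 229, 262 and 237 CPM in BT549. Every BT549 library was above every MDA-MB468 library. Acetalax log2 ratios ran from -0.27 in BT549 parental cells to 0.07 in MDA-MB468 parental cells, and the BT549 CE value of -0.14 became 0.05 with TMM scaling. NOTCH2 has near-identical partial copies (the table's NOTCH2NL row had 2.96 to 5.44 CPM), and reads of shared stretches may be lost or misassigned, so its counts are uncertain.

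Among the targets, NRARP had the widest range of the 10 genes relative to its line, 3.42 log2 units. It encodes a small ankyrin-repeat protein that limits Notch signaling and lies on chromosome 9 at 140194083 to 140196703 (hg19, minus strand). MDA-MB468 parental cells had 9.75 CPM as control and 27.4 with Acetalax, whereas the CE cells had 6.89 CPM as control and 6.96 with Acetalax. BT549 parental cells had 6.67 CPM as control and 14.5 with Acetalax, and the CE cells had 0.903 CPM (49 counts) as control and 2.29 (116 counts) with Acetalax. The treated parental library was the highest of each line, and the BT549 CE libraries were the lowest of all. The Acetalax log2 ratio was 1.49 (1.34 to 1.64) in MDA-MB468 parental, 1.12 (0.92 to 1.33) in BT549 parental and 1.34 (0.85 to 1.86) in BT549 CE cells. In MDA-MB468 CE cells it was 0.02 (-0.21 to 0.24), within counting error of no difference.

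NRARP was lower in CE than in parental cells of both lines, with and without Acetalax. Between controls the log2 ratio was -0.50 (-0.71 to -0.29) in MDA-MB468 and -2.87 (-3.35 to -2.44) in BT549, the latter a 7.32-fold lower level. Between treated libraries it was -1.97 (-2.15 to -1.80) in MDA-MB468 and -2.66 (-2.96 to -2.37) in BT549. Treated BT549 CE cells, at 2.29 CPM, were still below untreated BT549 parental cells, at 6.67 CPM.

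HEY1, a basic helix-loop-helix repressor known as a Notch target in vessels and other tissues, was higher with Acetalax in both BT549 backgrounds. It lies at 80676245 to 80680098 of chromosome 8 (hg19, minus strand). Its BT549 levels were 6.58 CPM in parental control, 13.5 in parental Acetalax, 2.77 in CE control and 8.17 in CE Acetalax cells. In MDA-MB468 the same order gave 2.14, 1.67, 1.06 and 1.09 CPM, from 104, 81, 47 and 52 counts. Both treated BT549 libraries were above both controls, and every BT549 library was above every MDA-MB468 library, although the counting intervals of the nearest libraries overlapped. The Acetalax log2 ratio was 1.03 (0.83 to 1.25) in BT549 parental and 1.56 (1.29 to 1.84) in BT549 CE cells. In MDA-MB468 it was -0.36 (-0.80 to 0.07) in parental and 0.04 (-0.56 to 0.64) in CE cells.

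Like NRARP, HEY1 was lower in CE cells of both lines. The log2 ratio between controls was -1.0 (-1.54 to -0.50) in MDA-MB468 and -1.25 (-1.55 to -0.96) in BT549. Between treated libraries it was -0.60 (-1.14 to -0.09) in MDA-MB468 and -0.72 (-0.91 to -0.54) in BT549. The share of all genes lower in CE cells in each of these 4 comparisons was 12.8%, and NRARP, HEY1 and NOTCH1 were the 3 of 9 Notch genes with that pattern.

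HES4 was higher with Acetalax in every background, with the smallest ratio in BT549 CE cells. HES4, a HES repressor gene without a counterpart in mouse, is on chromosome 1 at 934342 to 935552 (hg19, minus strand), and its promoter is the second sequence printed above. In MDA-MB468 it was at 91.8 CPM in parental control, 135 in parental Acetalax, 78.7 in CE control and 115 in CE Acetalax cells. In BT549 it was at 22.6, 32.0, 60.3 and 76.5 CPM in that order. Both treated MDA-MB468 libraries were above both controls of that line, whereas in BT549 both CE libraries were above both parental libraries. The Acetalax log2 ratios were 0.56 (0.50 to 0.61), 0.54 (0.48 to 0.60), 0.50 (0.38 to 0.62) and 0.34 (0.28 to 0.41) in MDA-MB468 parental, MDA-MB468 CE, BT549 parental and BT549 CE cells. None passed 1.5-fold with total scaling. With TMM scaling they were 0.63, 0.60, 0.58 and 0.54, and both MDA-MB468 ratios passed it. HES4 and NRARP were the 2 of 9 genes with a ratio above 0 in all 4 pairs, against 11.9% of all genes, although NRARP in MDA-MB468 CE cells was within counting error of no difference.

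In CE cells, HES4 was slightly lower than in parental cells of MDA-MB468 and higher than in those of BT549. The log2 ratio between controls was -0.22 (-0.29 to -0.16) in MDA-MB468 and 1.41 (1.31 to 1.52) in BT549, a 2.66-fold higher level. The treated libraries gave -0.24 (-0.29 to -0.19) and 1.26 (1.17 to 1.35).

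HES1, the best-known target of the pathway, is on chromosome 3 at 193853934 to 193856521 (hg19, plus strand), and its promoter with 2 motif copies is the first sequence printed above. In MDA-MB468 it was at 143 CPM in parental control, 114 in parental Acetalax, 138 in CE control and 137 in CE Acetalax cells. In BT549 the levels were 18.0, 25.9, 30.0 and 39.6 CPM. The treated parental library was the lowest of MDA-MB468, and the other 3 overlapped in their counting intervals. In BT549 all 4 libraries were distinct in their intervals and both CE libraries were above both parental ones. The Acetalax log2 ratio was -0.32 (-0.37 to -0.27) in MDA-MB468 parental and -0.01 (-0.06 to 0.04) in MDA-MB468 CE cells. It was 0.53 (0.39 to 0.66) in BT549 parental and 0.40 (0.31 to 0.50) in BT549 CE cells. With TMM scaling these BT549 ratios were 0.61 and 0.60, past 1.5-fold. Between controls CE exceeded parental cells by 0.74 (0.61 to 0.86) in BT549, and the ratio was -0.05 (-0.10 to just under 0) in MDA-MB468. Between treated libraries the values were 0.61 in BT549 and 0.27 in MDA-MB468.

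In both BT549 pairs the 4 targets HES1, HES4, HEY1 and NRARP were higher, and JAG1, JAG2, NOTCH1, NOTCH2 and NOTCH3 were lower. Of all genes, 26.1% were higher in both BT549 pairs and 52.9% were lower in both, so the lower group had the direction of most genes. The genes were chosen with these ratios known, and others of the same roles went differently. DLL1 was higher in the parental and lower in the CE pair, DLL3 was at 0.18 and 0.01 and HES7 at -0.45 and -1.35 on the log2 scale, in parental and CE cells. DLL4 was higher in both pairs but did not exceed 0.368 CPM in BT549. NOTCH2 in the CE pair left this pattern with TMM scaling. In MDA-MB468, HES1 was lower and NRARP, HES4 and JAG1 were higher in parental cells. By the sign of the ratio alone, JAG2 and NOTCH1 were above control in both MDA-MB468 pairs and below it in both BT549 pairs, as were 10.2% of all genes, but the MDA-MB468 intervals of JAG2 included 0. HES1 was the reverse, as were 7.28%, although its MDA-MB468 CE interval included 0 and the ratio turned from -0.01 to 0.05 with TMM scaling.

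The edgeR fit over the 4 backgrounds used TMM scaling, so its values are not averages of the ratios above. Its log2 fold change of the targets was 1.08 (SE 0.27) for NRARP, 0.73 (SE 0.35) for HEY1, 0.59 (SE 0.09) for HES4 and 0.25 (SE 0.16) for HES1. For the receptors it was -0.38 (SE 0.12) for NOTCH3, 0.04 (SE 0.14) for NOTCH1 and -0.03 (SE 0.09) for NOTCH2. For the ligands it was -0.76 (SE 0.49) for JAG1, -0.18 (SE 0.20) for JAG2 and 0.26 (SE 0.47) for DLL1. JAG1, whose ratios had different signs in different backgrounds, had the widest standard error of the set.

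**Figure D2:**
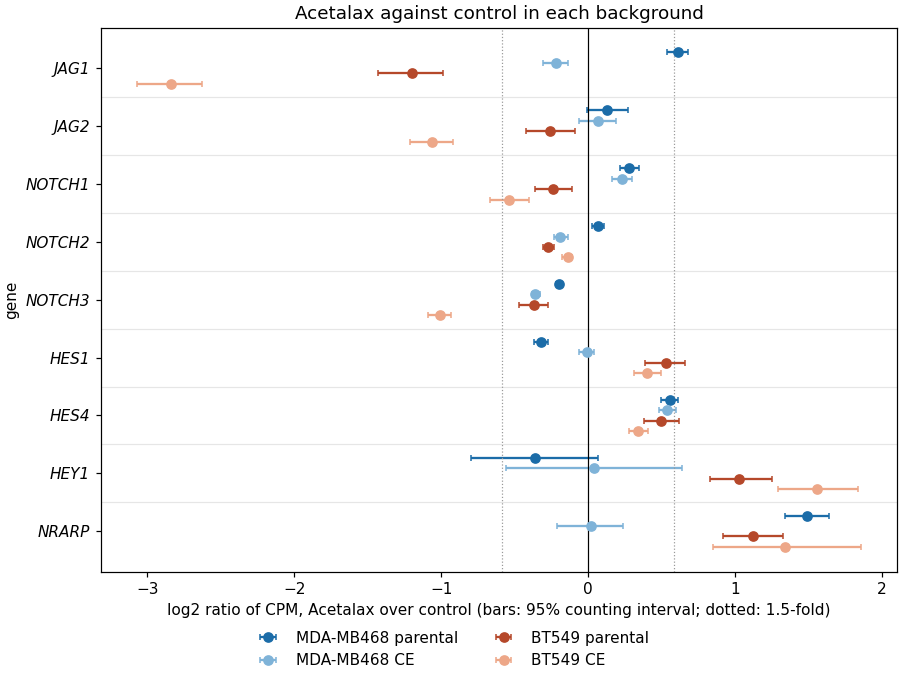
Log2 ratio of CPM, Acetalax over control (horizontal axis), for the 9 Notch genes that reached a mean of 1 CPM, in MDA-MB468 (blue) and BT549 (red) parental (dark) and CE (light) cells; bars are 95% counting intervals, dotted lines mark 1.5-fold, and each point is 1 pair of libraries. HES4 lies between 0.34 and 0.56 in all 4 backgrounds, whereas JAG1 spans 0.61 to -2.84.

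Counted at 1.5-fold among the 9 genes, JAG1 and NRARP were higher in MDA-MB468 parental cells (11.2% of all genes) and 0 were lower (14.8%). In MDA-MB468 CE cells 0 were higher (7.19% of all genes) and 0 lower (9.37%), although HES4 passed 1.5-fold there with TMM scaling. In BT549 parental cells HEY1 and NRARP were higher (6.75% of all genes) and JAG1 was lower (13.6%). In BT549 CE cells HEY1 and NRARP were higher (10.1% of all genes) and JAG1, JAG2 and NOTCH3 were lower (28.4%). With TMM scaling HES4 in MDA-MB468 parental cells and HES1 in both BT549 backgrounds also passed 1.5-fold. The median log2 ratio of the 9 genes was 0.13, 0.02, -0.24 and -0.14 in MDA-MB468 parental, MDA-MB468 CE, BT549 parental and BT549 CE cells. That of all genes was -0.10, -0.07, -0.10 and -0.21. Since the choice of genes used these ratios, nothing is read from the counts.

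CE and parental control cells differed at 1.5-fold in 7 of the 9 genes in BT549 and in 2 in MDA-MB468. Of all genes, 32.1% in BT549 and 13.1% in MDA-MB468 did so. Between treated libraries the counts were 5 in BT549 and 4 in MDA-MB468. The choice of genes used the control ratios, so no contrast between the lines is read from these counts. Between MDA-MB468 controls, NOTCH3 and HEY1 were at least 1.5-fold lower in CE cells (5.45% of all genes) and 0 were higher (7.61%). Between BT549 controls, JAG1, JAG2, NOTCH3, HES1 and HES4 were higher (16.5% of all genes) and HEY1 and NRARP were lower (15.6%). Between treated MDA-MB468 libraries, 0 were higher (10.8% of all genes) and JAG1, NOTCH3, HEY1 and NRARP were lower (8.76%). Between treated BT549 libraries, HES1 and HES4 were higher (13.0% of all genes) and NOTCH1, HEY1 and NRARP were lower (23.2%). With TMM scaling NOTCH1, at -0.48, and HEY1, at -0.56, no longer reached 1.5-fold there. The targets in BT549 CE cells thus went 2 ways, with HES1 and HES4 higher and HEY1 and NRARP lower, both with and without Acetalax. The median log2 ratio between controls was -0.19 in MDA-MB468 and 0.67 in BT549 for the 9 genes, and 0.04 and -0.05 for all genes. Between treated libraries it was -0.45 in MDA-MB468 and -0.14 in BT549 for the 9 genes, and 0.06 and -0.15 for all genes. The Acetalax ratios of CE and parental cells share these control libraries with the CE ratios.

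Markers of epithelial and mesenchymal cells also differed between CE and parental controls. In BT549 the summed level of the 5 epithelial markers was 7.76 CPM in parental and 48.9 in CE control cells, most of it KRT18 at 6.67 and 47.9 CPM. CDH1 was also higher in CE control cells, at 0.959 against 0.237 CPM. EPCAM, KRT5 and KRT14 were lower there, and each was below 1 CPM in both libraries. The sum of the 3 mesenchymal markers was 1636 CPM in parental and 1032 in CE control cells of BT549, with CDH2 at 223 and 110 CPM and VIM at 1327 and 864 CPM. In MDA-MB468 the epithelial sum was 2171 CPM in parental and 2334 in CE control cells, but KRT14 was at 56.6 and 5.1 CPM. The treated libraries had epithelial sums of 3051 and 3375 CPM in parental and CE cells of MDA-MB468 and 4.71 and 28.0 CPM in those of BT549. The part of these shifts in the Notch gene ratios was not tested.

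**Figure D3:**
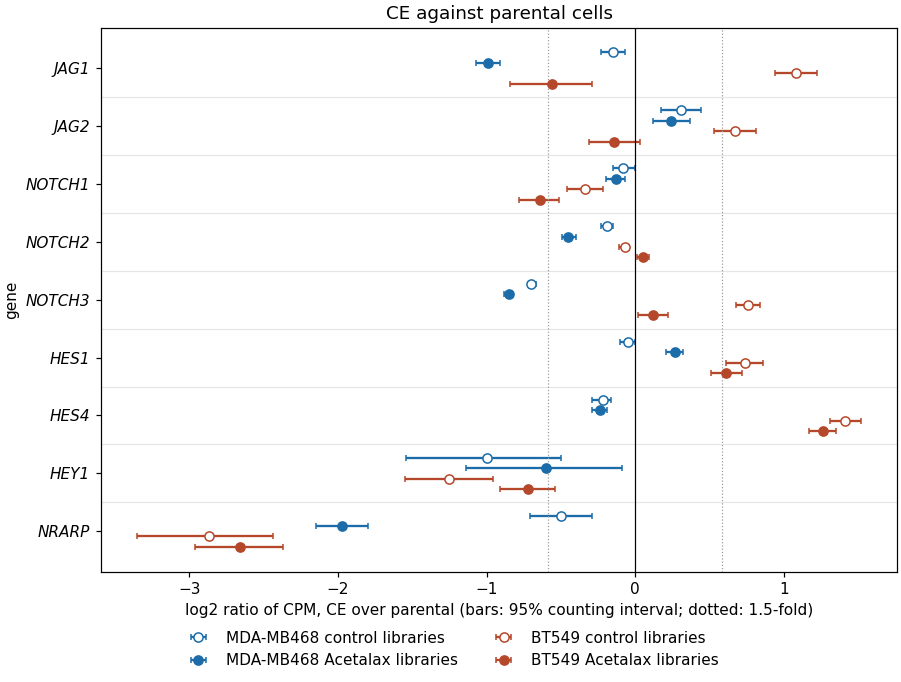
Log2 ratio of CPM, CE over parental cells (horizontal axis), for the same 9 genes in MDA-MB468 (blue) and BT549 (red), between control libraries (open) and between Acetalax libraries (filled); bars are 95% counting intervals and dotted lines mark 1.5-fold. In BT549, HES4 is at 1.41 and 1.26 while NRARP is at -2.87 and -2.66.

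For most of the genes the lines did not overlap. This held for 8 of the 10 genes, all but JAG2 and NRARP. JAG1, NOTCH1, NOTCH3, HES1 and HES4 were higher in MDA-MB468, as were 32.7% of all genes, and DLL1, NOTCH2 and HEY1 were higher in BT549, as were 23.5%. DLL1 is not among the genes that these shares count, and its nearest libraries, at 0.206 CPM (10 counts) and 0.213 CPM (9 counts), had overlapping intervals, as had those of HEY1. The nearest HES4 libraries, MDA-MB468 CE control at 78.7 CPM and BT549 CE Acetalax at 76.5 CPM, also had overlapping intervals. With TMM scaling the HES4 levels of the lines themselves overlapped. The median of the 4 libraries was 15.7-fold higher in MDA-MB468 for NOTCH3 (608 against 38.7 CPM), 5.78-fold for JAG1, 4.92-fold for HES1, 3.36-fold for NOTCH1 and 2.24-fold for HES4. It was 5.34-fold higher in BT549 for HEY1 (7.37 against 1.38 CPM) and 1.33-fold for NOTCH2. The epithelial and mesenchymal markers given above also separate the lines, and their part in these differences cannot be told apart from that of the line.

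The rest of the pathway was examined as a list of 47 other Notch genes, of which 37 had a mean of at least 1 CPM and 40 entered the edgeR quasi-likelihood test of Acetalax over the 4 backgrounds. None of the 40 passed an adjusted p of 0.05 (0 called). At an unadjusted p under 0.05 there were 6 higher and 7 lower, against 13.3% and 15.8% of all genes tested, and DESeq2 called 7, against 16.5%. Of all 17811 genes tested, 2.77% were called higher and 2.39% lower. The median log2 fold change of the list was 0.13, against -0.02 for all genes. By log2 ratio, 3 of the 37 were higher in all 4 pairs (11.9% of all genes) and 9 were lower in all 4 (30.0% of all genes), so neither count stood above all genes.

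Genes of the list with a low adjusted p belonged to several steps of the pathway. NEURL1B, an E3 ligase that acts on ligand uptake, had a log2 fold change of -0.63 (SE 0.15, edgeR adjusted p = 0.0558) and was lower in all 4 pairs. DTX3L and DTX4, of the deltex family of E3 ligases, had -0.48 (SE 0.14, edgeR adjusted p = 0.0754) and -0.66 (SE 0.21, edgeR adjusted p = 0.095). DTX4 was at 114 to 246 CPM in MDA-MB468 and at most 0.461 in BT549, so its value rests on MDA-MB468. The glycosyltransferase POGLUT1 had -0.49 (SE 0.17, edgeR adjusted p = 0.107).

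Among the other genes named by the same rule, MFNG, a Fringe glycosyltransferase that alters ligand choice, had its highest levels in treated MDA-MB468 cells. It was at 2.32 and 10.3 CPM in parental control and Acetalax cells and at 3.33 and 11 CPM in CE control and Acetalax cells. In BT549 it did not exceed 1.70 CPM. Its fit gave 1.06 (SE 0.46, edgeR adjusted p = 0.178). Of the cleavage enzymes, ADAM17 had a log2 fold change of 0.41 (SE 0.15, edgeR adjusted p = 0.119) and APH1B had -0.47 (SE 0.18, edgeR adjusted p = 0.137). RBPJ, whose motif core occurs in the HES1 and HES4 windows, was at 57.9 to 83.5 CPM in all libraries, with 0.29 (SE 0.12, edgeR adjusted p = 0.156). Its binding to these windows was not measured. CIR1, a corepressor that binds RBPJ, had -0.30 (SE 0.12, edgeR adjusted p = 0.141).

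Most of the remaining named genes differed widely between the lines or were low. The ligands DLK2 and DNER had their highest levels in BT549. DNER was at 36.7 CPM in parental and 2.25 in CE control cells of that line, a log2 ratio of -4.02, and did not exceed 0.21 CPM in MDA-MB468. DLK2 was at 3.93 CPM in parental and 11.9 in CE control cells of BT549, a log2 ratio of 1.60. NEURL1 was at 11.6 to 15.7 CPM in MDA-MB468 and at most 0.391 in BT549. HES2 was at 15.1 to 21.9 CPM in MDA-MB468 and at most 0.184 in BT549, and HES7 did not exceed 4.45 CPM. DTX3L in BT549 had 48.9 CPM in parental and 221 in CE control cells, a log2 ratio of 2.18.

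**Figure D4:**
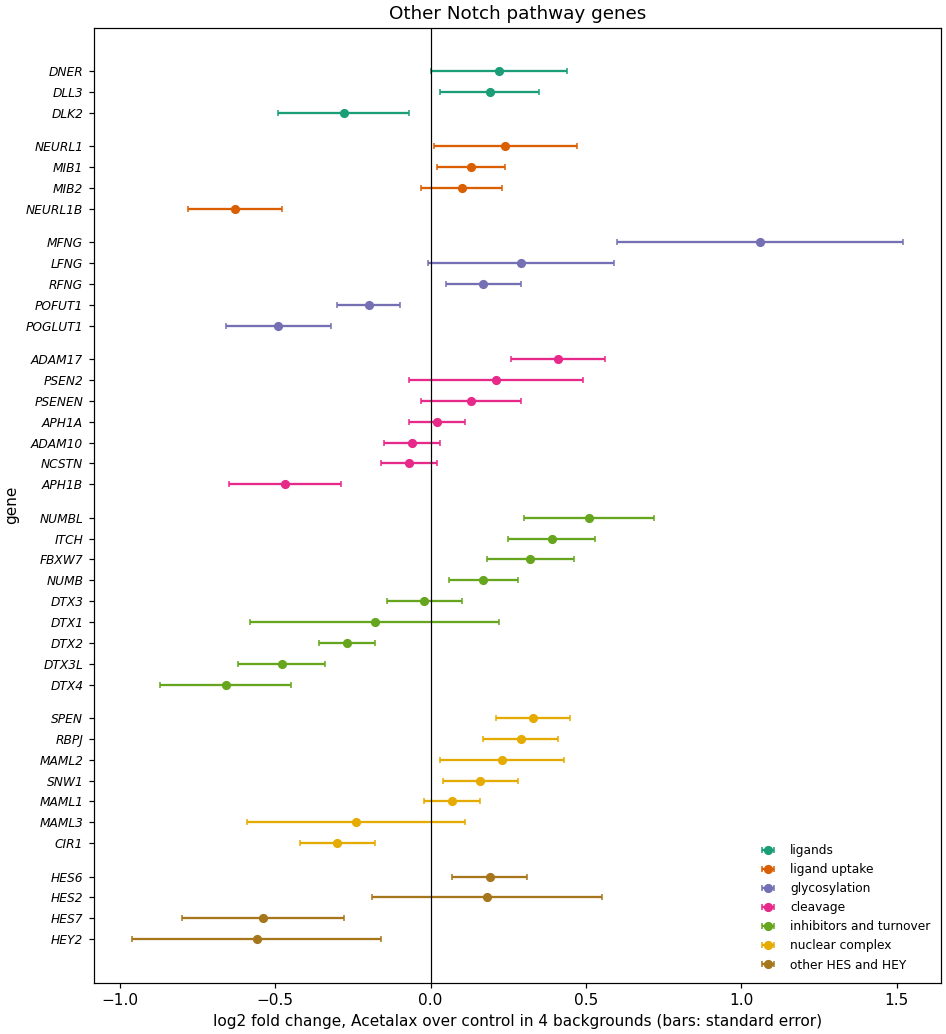
Log2 fold change of Acetalax over control across the 4 backgrounds (horizontal axis, edgeR fit with background as a block) for other Notch genes tested, grouped and colored by role, with bars of 1 standard error. NEURL1B, at -0.63, had the smallest adjusted p (0.0558), and MFNG, at 1.06, had a standard error of 0.46.

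For the 3 genes with the widest range relative to their line, the most alike genes were sought by Pearson correlation of line-centered log2 CPM over the 8 libraries among 11135 genes. These are descriptions over 8 points that share libraries and lines, chosen as the highest of many. For NRARP they were MDN1 (r = 0.984), HSF2 (r = 0.984) and RP11-37B2.1 (r = 0.983). HSF2, a heat shock transcription factor, was at 27.8, 37.9, 23.1 and 23.6 CPM in MDA-MB468 and 32.9, 44.2, 22.5 and 26.5 in BT549, in the order used above. It thus had the same high libraries as NRARP but a narrower range. For JAG1, whose range was 2.7 log2 units, they were GAB2 (r = 0.987), ZNF224 (r = 0.986) and ADAMTS15 (r = 0.979). ADAMTS15, a metalloprotease, was at 49.4, 14.1, 78.9 and 8.64 CPM in BT549 and at most 0.412 CPM in MDA-MB468. For HEY1, whose range was 2.10, they were RPS3A (r = 0.987), HNRNPC (r = 0.975) and SNX5 (r = 0.974). These varied far less than HEY1: in BT549, RPS3A lay at 184 to 228 CPM and HEY1 at 2.77 to 13.5.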

How the data were processed

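PolyA RNA of 8 cell line libraries was sequenced. The authors aligned reads to hg19 with STAR (2.7.11b in the submitters' processing notes) and deposited raw read counts per gene; the annotation and strand column are not given in the sources used here. The table's 58154 rows held 55679 identifiers, and 2475 repeated rows were removed (3 identifiers had unequal counts; the first was kept). Members and lists were chosen with earlier results of these data known.

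CPM was computed from counts on genes, and log2 ratios after adding 0.5 counts, with exact binomial counting intervals (95%). Wilson intervals belong to single levels. A fold of 1.5 and a mean of at least 1 CPM set the counts of genes. FPKM used merged exon lengths of a GENCODE annotation lifted to hg19, which matched 55663 identifiers. Acetalax over 4 backgrounds was fitted with edgeR 4.0.16 (R 4.3.3; quasi-likelihood, TMM, filterByExpr, background as block, 3 residual degrees of freedom, Benjamini-Hochberg adjustment over all genes tested), the libraries of a background being paired by the labels. The p-values measure the spread of the Acetalax response over these 4 backgrounds, so a response that differs between lines counts as spread. Nothing says that libraries came from separate cultures. The CE cells were made from the parental cells, so the backgrounds are not independent. In a check on simulated data over 17981 genes, 94% of 4-fold and 88% of 2-fold differences were recovered with 9 false calls. The simulated counts had a lower dispersion (spread beyond counting error) than the 0.035 fitted to these data. They also had the same fold in every background, so recovery in these data may be lower. DESeq2 1.42.0, other scalings, folds, filters and left-out pairs were alternatives. Named genes were the 10 members, the 2 genes per role of the pathway list (mean of at least 1 CPM) with the largest median ratio, any list gene called, the most alike genes of 3 members, and the markers; PECAM1 was not analysed, and 1 gene of the pathway list is not reported here by name or in the plot of the list.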

Additional observations from a re-analysis of the deposited data

Results flagged for a closer look

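Several Notch genes went opposite ways in MDA-MB468 and BT549, with counting intervals that did not include 0; with 1 library per condition the difference between lines was not tested. As log2 ratios of CE over parental control cells, JAG1 was at -0.15 in MDA-MB468 and 1.08 in BT549, NOTCH3 at -0.70 and 0.76, HES1 at -0.05 and 0.74, and HES4 at -0.22 and 1.41. The MDA-MB468 differences of HES1 (1.04-fold) and JAG1 (1.11-fold) were small, and the interval of HES1 ended just under 0. The share of all genes with opposite CE ratios in the lines was not counted, so nothing is read from the number of these genes. Between treated libraries JAG1 (-0.99 and -0.56) and HES1 (0.27 and 0.61) went the same way in both lines, while NOTCH3 (-0.85 and 0.12) and HES4 (-0.24 and 1.26) again went opposite ways. Under Acetalax, NOTCH1 was at 0.28 and 0.23 in MDA-MB468 parental and CE cells and at -0.24 and -0.54 in BT549 parental and CE cells. By sign alone, 10.2% of all genes had this pattern.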

How the results depend on the processing

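Of 240 single-gene ratios recomputed with another scaling, added count or the study's log2(FPKM + 1) scale, 183 stayed within their counting interval, 57 moved beyond it, and 0 of those past 1.5-fold changed sign. Below that fold, NOTCH2 in BT549 CE cells turned from -0.14 to 0.05 and HES1 in MDA-MB468 CE cells from -0.01 to 0.05 with TMM scaling (0.05 and 0.06 with DESeq2 size factors). Counts of the 9 genes past 1.5-fold in MDA-MB468 parental cells went from 2 to 1 with log2(FPKM + 1) and to 1 with a 2-fold limit. In MDA-MB468 CE cells they went from 0 to 1 with TMM scaling and to 1 with DESeq2 size factors. With TMM scaling they also went from 2 to 3 in MDA-MB468 parental, 3 to 4 in BT549 parental and 5 to 6 in BT549 CE cells. Between MDA-MB468 controls they went from 2 to 1 with log2(FPKM + 1) and to 0 with a 2-fold limit, and between BT549 controls from 7 to 4 with a 2-fold limit. The edgeR fit called 919 genes with the background as a block, 915 with DESeq2 size factors, 3585 when every gene with at least 1 count entered, and 0 without the block, while DESeq2 called 2939. Leaving out each background's pair in turn gave 0 to 299 calls, with 0 without either MDA-MB468 pair, 253 without BT549 CE and 299 without BT549 parental cells, in fits with fewer libraries. Of the other Notch genes 7 were called with every gene entered and 7 by DESeq2, against 0 otherwise. No condition has a replicate, so no replicate could be left out and the spread between cultures is unknown.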
